A study of Mus musculus with 5 samples.

Results

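The 41 cell cycle genes described here were chosen by symbol, out of the 27998 genes listed for each library, in single-cell RNA sequencing of the mouse temporomandibular joint (TMJ) disc, the fibrocartilage pad on which the lower jaw turns against the skull. They fall into a mitotic list of 24 genes, an S phase list of 15 genes and 2 broad genes, Stmn1 and H2afz, whose transcripts are also made in cells that do not divide. The 24 mitotic genes are Mki67, Top2a, Cenpf, Ube2c, Birc5, Cdk1, Ccnb1, Ccnb2, Ccna2, Cdc20, Plk1, Aurka, Aurkb, Bub1, Bub1b, Nusap1, Tpx2, Kif11, Kif23, Prc1, Hmmr, Cenpe, Cenpa and Cks2. The 15 S phase genes are Pcna, Mcm2, Mcm3, Mcm4, Mcm5, Mcm6, Mcm7, Tyms, Rrm1, Rrm2, Gins2, Cdc6, Ung, 2810417H13Rik (also called Pclaf) and Tk1. UMIs of all 41 were found in at least 1 library.

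The study profiled discs of C57BL/6 wild-type mice in 5 libraries, 1 per condition and each from pooled discs. 4 libraries were of normal discs, from mice aged 3 d (newborn), 3 w (juvenile), 16 w (adult) or 78 w (aged). The 5th library, called injured, was from discs punctured with a needle when the mice were 5 weeks old and collected 2 weeks later, so that the mice were 7 weeks old and no uninjured library of that age was analysed here. Per the study's methods the 3 d library came from male and female pups and the other normal libraries from males, which means that age and the mix of sexes cannot be told apart in comparisons with 3 d. The methods describe the injury in mice that carried Myh11-CreER and Tm fl/-, while the labels give wild type. For histology of such mice the methods also give a shorter time to collection. The sex of the mice of the injured library is not stated. A unique molecular identifier (UMI) marks each captured transcript, and levels are given in CPM, the UMIs of a gene or list in all cells of 1 class, as a share of the UMIs of those cells times 1000000. Intervals in parentheses are exact 95% Poisson intervals, exact intervals for the ratio of 2 counts or, for shares of cells, Clopper-Pearson intervals, and counting error is all that they cover. There is no replicate check and no test, since each condition had 1 library, so that "higher" and "lower" below compare libraries.

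The libraries held 8467 to 15169 barcodes and 31585993 to 125427849 UMIs, and pairs of libraries shared 19 to 39 barcodes. The injured library was the shallowest per cell, with a median of 3299 UMIs against 7721 to 12496 in the others. Cells were clustered without the cell cycle genes and their pathway lists, and classes were named from marker genes, each name to be read as "-like". The stromal class held 6912 to 11114 cells per library, the endothelial class 408 to 1169, the mural class (smooth muscle and pericytes) 118 to 351 and the macrophage class 112 to 491. An erythroid class of 339 cells with a median of 4848 UMIs was present at 3 d. In the other libraries it held 3 to 206 cells, and it is described at 3 d alone.

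A dividing cell copies its genome in S phase and parts the copies in mitosis. E2F transcription factors switch on the genes of DNA replication as cells leave G1, among them the MCM helicase that opens the double helix, the sliding clamp PCNA and the enzymes that supply deoxynucleotides. Genes of mitosis are switched on later, in G2, and many are held off in resting cells by the DREAM complex through promoter elements named CHR. The cyclin and cyclin-dependent kinase (CDK) pairs drive the steps from one phase to the next, and CDK inhibitors stop them.

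The promoters of 6 members are shown because CHR and E2F letters were unevenly spread over the mitotic and S phase lists, as counted below. Each runs from 250 bases before to 50 bases after the annotated start, 5′ to 3′ on the strand of the gene, from RefSeq on GRCm38.p6. They are the 3 members of each list with most UMIs among those that had a single entry and a motif searched for that list. The printed set was thus chosen by its motifs and does not test the difference. In the mitotic genes the capitals mark the CHR letters TTTGAA and the CCAAT box letters CCAAT on either strand, and in the S phase genes they mark 1 of 4 E2F words (TTTGGCGC, TTTCGCGC, TTTCCCGC, TTTGCCGC) on either strand. Words on opposite strands may overlap, as in Mcm6. CCAAT letters were not marked in the S phase promoters, which also hold them, and the Cks2 window held no CHR letters. Cks2 lies at chr13:51644982-51645281 (plus strand), Top2a at chr11:99024140-99024439 (minus), Cenpa at chr5:30666636-30666935 (plus), 2810417H13Rik at chr9:65890073-65890372 (plus), Mcm6 at chr1:128359656-128359955 (minus) and Mcm3 at chr1:20820263-20820562 (minus).
Cks2: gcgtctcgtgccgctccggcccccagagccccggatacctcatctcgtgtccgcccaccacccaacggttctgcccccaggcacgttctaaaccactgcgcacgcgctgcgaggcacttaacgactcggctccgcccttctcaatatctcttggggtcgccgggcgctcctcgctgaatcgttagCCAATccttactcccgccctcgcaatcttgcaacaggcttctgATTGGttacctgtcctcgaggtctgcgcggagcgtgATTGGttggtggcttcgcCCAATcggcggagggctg
Top2a: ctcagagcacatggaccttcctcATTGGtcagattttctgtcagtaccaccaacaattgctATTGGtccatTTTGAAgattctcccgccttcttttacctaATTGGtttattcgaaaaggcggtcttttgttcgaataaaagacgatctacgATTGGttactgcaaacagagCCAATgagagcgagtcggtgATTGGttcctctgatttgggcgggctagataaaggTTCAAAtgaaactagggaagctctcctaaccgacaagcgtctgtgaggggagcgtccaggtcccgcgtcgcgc
Cenpa: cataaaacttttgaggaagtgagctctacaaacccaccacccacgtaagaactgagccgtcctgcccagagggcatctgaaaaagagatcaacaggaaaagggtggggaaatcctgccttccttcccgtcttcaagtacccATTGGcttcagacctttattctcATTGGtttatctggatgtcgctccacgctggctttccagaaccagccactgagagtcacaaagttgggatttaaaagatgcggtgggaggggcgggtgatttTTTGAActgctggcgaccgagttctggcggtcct
2810417H13Rik: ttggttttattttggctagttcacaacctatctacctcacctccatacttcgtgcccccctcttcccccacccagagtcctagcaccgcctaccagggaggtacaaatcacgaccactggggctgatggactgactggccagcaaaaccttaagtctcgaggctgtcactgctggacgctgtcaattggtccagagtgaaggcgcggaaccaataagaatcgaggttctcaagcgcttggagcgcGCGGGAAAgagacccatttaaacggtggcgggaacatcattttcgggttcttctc
Mcm6: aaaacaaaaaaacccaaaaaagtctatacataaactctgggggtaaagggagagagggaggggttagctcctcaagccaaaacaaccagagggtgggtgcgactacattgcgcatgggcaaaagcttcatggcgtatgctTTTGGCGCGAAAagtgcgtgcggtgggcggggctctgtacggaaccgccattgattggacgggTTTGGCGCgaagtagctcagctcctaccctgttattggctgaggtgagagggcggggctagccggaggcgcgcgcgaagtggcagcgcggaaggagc
Mcm3: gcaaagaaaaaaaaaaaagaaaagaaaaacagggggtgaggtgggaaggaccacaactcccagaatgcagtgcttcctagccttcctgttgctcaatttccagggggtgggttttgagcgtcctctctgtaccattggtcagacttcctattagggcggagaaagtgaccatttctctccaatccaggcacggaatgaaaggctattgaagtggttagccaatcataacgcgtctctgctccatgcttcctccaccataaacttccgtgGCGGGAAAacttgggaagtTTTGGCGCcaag

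The CHR letters stood in the promoters of 15 of 21 mitotic members with an entry (71.4%), against 20.2% of the 27025 genes of the promoter table. CCAAT stood in 19 of 21 (90.5%) against 41.1%, but also in 9 of 13 S phase members (69.2%). An E2F word stood in 6 of 13 S phase members with an entry (46.2%) against 2.60% of all genes, and in 1 of 21 mitotic members (4.76%). The CHR letters were found in 1 of 13 S phase members. Pathway genes that are not members had like shares, with CHR letters in 26 of 43 other mitotic genes (60.5%), an E2F word in 13 of 28 other S phase genes (46.4%) and CCAAT in 69.8% and 67.9% of these lists. Ccna2, Aurkb, Tpx2, Mcm4, Gins2 and Stmn1 were not matched. These matches describe letters in a window and were not tested as binding sites.

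In stromal cells the mitotic genes were at their highest at 3 d and were lower by 17.3-fold (16.8–17.8) at 3 w. Their summed level was 775 CPM (770–781) at 3 d, 44.9 (43.7–46.2) at 3 w, 50.5 (48.9–52.0) at 16 w, 41.9 (40.6–43.3) at 78 w and 114 (110–118) in the injured library. The S phase genes had a smaller difference, with 431 CPM (427–435) at 3 d and 139 (137–141) at 3 w, a level 3.1-fold lower (3.05–3.16). They stayed at 166 CPM (163–169) at 16 w and 145 (142–147) at 78 w, and stood at 98.4 CPM (94.8–102) in the injured library. The injured library was thus above the 3 later normal libraries in the summed mitotic level and below them in the summed S phase level. Among the S phase members, Rrm2 and 2810417H13Rik were above these libraries, with values given below. There were 0.556 S phase UMIs per mitotic UMI in stromal cells at 3 d, 3.09 at 3 w, 3.29 at 16 w, 3.46 at 78 w and 0.864 in the injured library.

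**Figure D1:**
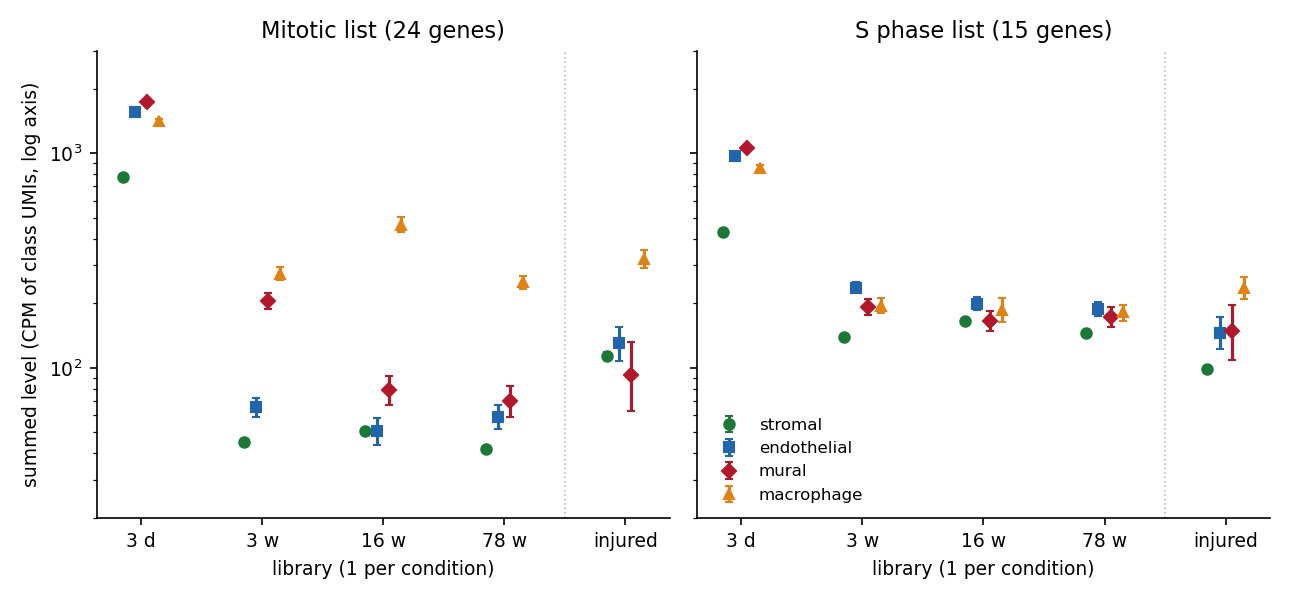
Summed level of the 24 mitotic genes (left) and the 15 S phase genes (right) in CPM on a log axis, by library, for stromal, endothelial, mural and macrophage cells. Points are single libraries and bars are exact 95% Poisson intervals. The 3 d points are the highest of each class in both panels, and the later stromal points lie between 41.9 and 114 CPM for the mitotic list.

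Counted gene by gene, 35 of 41 members were at least 2-fold lower in stromal cells at 3 w than at 3 d and 0 were at least 2-fold higher, where a gene needed 50 UMIs or more in whichever library was higher. Of all 14009 genes with that many UMIs, 20.5% were at least 2-fold lower and 16.1% at least 2-fold higher, with a median ratio of 0.951. All 24 mitotic members were at least 2-fold lower, with a median of 25.8-fold, as were 10 of 15 S phase members, with a list median of 4.98-fold. The 6 members that differed by less than 2-fold were Mcm3, Mcm4, Mcm6, Mcm7, Pcna and H2afz. In the lists of pathway genes that are not members, 48 of 53 other mitotic genes and 26 of 40 other S phase genes were at least 2-fold lower.

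**Figure D2:**
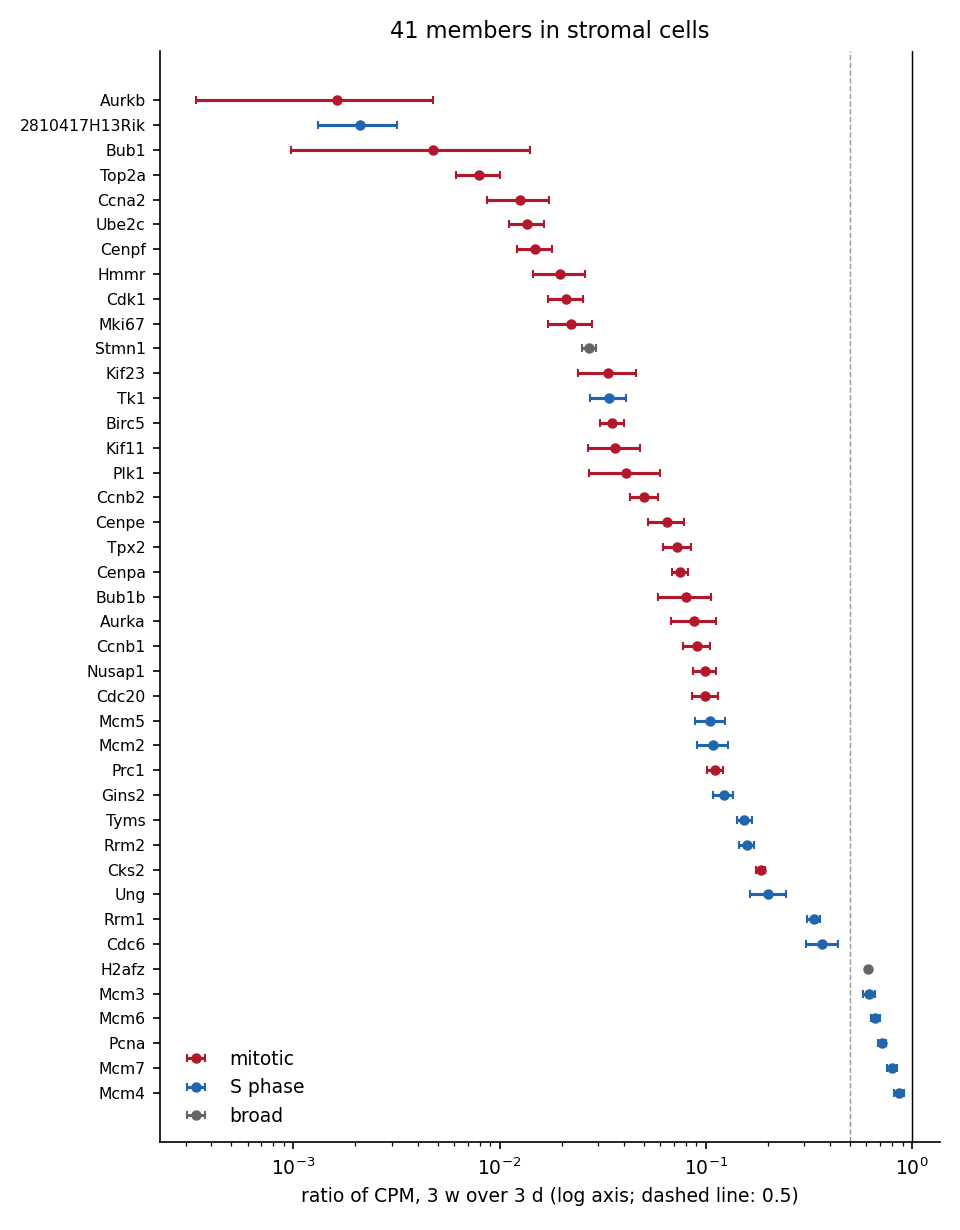
Ratio of CPM at 3 w to CPM at 3 d in stromal cells for each of the 41 members, on a log axis, with exact 95% intervals of the ratio of 2 counts, coloured by list. Genes are ordered by ratio. Aurkb has the lowest ratio (0.00163) and the 6 points to the right of the dashed line at 0.5 are Mcm3, Mcm4, Mcm6, Mcm7, Pcna and H2afz.

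Among the mitotic members, those most often used as marks of dividing cells were close to absent in stroma after 3 d. Mki67, which coats mitotic chromosomes, was at 27.5 CPM at 3 d, 0.610 at 3 w, 0.434 at 16 w, 0.314 at 78 w and 1.70 in the injured library. Top2a, the topoisomerase that untangles sister chromatids, was at 77.0, 0.610, 1.59, 0.639 and 3.69 CPM in the same order, a 126-fold difference between 3 d and 3 w. Both genes were lowest in the normal libraries from 3 w on, and the injured library stood between these and 3 d.

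The genes of the mitotic kinase and of protein breakdown at mitosis followed the same course. Cdk1, the kinase that drives entry into mitosis, was at 44.7 CPM at 3 d, 0.937 at 3 w, 0.285 at 16 w, 0.173 at 78 w and 2.80 in the injured library. Ube2c, a ubiquitin-conjugating enzyme that acts with the anaphase-promoting complex, was at 68.4, 0.928, 0.322, 0.628 and 6.67 CPM. Cks2, a small subunit that binds CDKs, differed far less, with 88.9 CPM at 3 d, 16.4 at 3 w, 25.4 at 16 w, 24.7 at 78 w and 47.3 in the injured library. Cks2 at 3 w was 5.41-fold below 3 d, and its share of the mitotic UMIs in stroma was 11.5% at 3 d, 36.6% at 3 w, 50.4% at 16 w, 58.8% at 78 w and 41.5% in the injured library. Without Cks2 the list stood at 686, 28.5, 25.1, 17.3 and 66.6 CPM, so that it was lower at 78 w than at 3 w by more than with Cks2.

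The genes of centromere, spindle and cytokinesis held a similar range. Cenpf, a kinetochore protein, was at 62.9 CPM at 3 d, 0.937 at 3 w, 0.124 at 16 w, 0.173 at 78 w and 6.25 in the injured library, a difference of 67.1-fold between 3 d and 3 w. Birc5 (survivin), of the chromosomal passenger complex, was at 60.0, 2.11, 2.02, 1.27 and 3.27 CPM. Cenpa, the histone H3 variant of centromeres, was at 65.0, 4.87, 2.76, 1.93 and 7.95 CPM, and Prc1, which bundles the microtubules of the central spindle, at 42.4, 4.70, 2.50, 1.65 and 6.78 CPM. The gene with the lowest ratio, Aurkb, the kinase of the passenger complex, was picked out after its values were seen. It was at 16.3 CPM at 3 d and at 0.0265 CPM at 3 w, where 3 UMIs were counted in all stromal cells, a ratio of 0.00163 (0.000336–0.00477). Aurka and Cdc20, also picked out for their values, were higher at 16 w than at 3 w, Aurka with 0.628 CPM at 3 w and 2.11 at 16 w and Cdc20 with 1.88 and 4.18.

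The other 15 mitotic members, described after their values were seen, ranged in stroma from 5.58 CPM (Bub1) to 31.2 CPM (Ccnb2) at 3 d and from 0.0265 CPM (Aurkb, Bub1) to 2.26 CPM (Nusap1) at 3 w. Ccna2 (cyclin A2) at 3 w was 80.0-fold below 3 d and Ccnb2 (cyclin B2) 19.9-fold lower. The kinesins Kif11 and Kif23, motors of the spindle and of cytokinesis, were 27.6-fold and 29.9-fold lower, and Hmmr, a spindle protein, was 51.0-fold lower. Of the spindle checkpoint genes, Bub1b went from 5.65 CPM to 0.451, and of the polo-like and aurora kinases Plk1 went from 6.01 CPM to 0.248. In each of these genes the 3 later normal libraries lay below 3 d by more than they lay apart from each other in CPM.

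The S phase members of stroma differed widely among themselves. 2810417H13Rik, whose protein binds PCNA at replication forks, had 92.4 CPM at 3 d, 0.194 and 0.0372 CPM in juvenile and adult discs, 0.0542 in aged discs and 1.78 in the injured library. Its level at 3 w was 475-fold lower. Pcna itself stood at 46.1 CPM at 3 d, 33.0 at 3 w, 62.1 at 16 w, 52.3 at 78 w and 37.5 in the injured library, and was thus highest at 16 w. Pcna held 10.7% of the S phase UMIs of stroma at 3 d, 23.8% at 3 w, 37.4% at 16 w, 36.1% at 78 w and 38.1% in the injured library. Copies named Pcna-ps1, Pcna-ps2 and Tyms-ps are annotated in GENCODE vM21, so that reads of Pcna and Tyms could be shared with near-identical sequences.

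The enzymes of deoxynucleotide supply lay between these. Tyms, which makes thymidylate, was at 40.3 CPM at 3 d and 6.21 at 3 w, and stayed at 5.23 at 16 w, 5.72 at 78 w and 5.33 in the injured library. Rrm2, the regulated subunit of ribonucleotide reductase, was at 35.3, 5.59, 5.48, 3.24 and 7.10 CPM. Rrm1, its large subunit, differed less, with 25.3 CPM at 3 d, 8.43 at 3 w, 9.58 at 16 w, 9.74 at 78 w and 4.93 in the injured library. Rrm2 was 6.31-fold and Rrm1 3.00-fold lower at 3 w than at 3 d. The members not yet named with values, Tk1, Gins2, Cdc6 and Ung, were described after their values were seen. Tk1, the thymidine kinase of S phase, at 3 w was 29.6-fold below 3 d, with 26.7 CPM at 3 d and 0.650 to 0.929 CPM in the other 4 libraries. Gins2, of the GINS complex that travels with the helicase, was 8.21-fold lower, with 25.6 CPM at 3 d and 3.12 at 3 w. Ung, which removes uracil from DNA, and Cdc6, which loads the helicase, were low at 3 d, at 5.45 and 4.23 CPM, and were 4.98-fold and 2.73-fold lower at 3 w.

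The 6 subunits of the MCM helicase work as 1 ring, but their transcripts differed in stroma. Mcm2 was at 12.7 CPM at 3 d and 1.37 at 3 w, and Mcm5 at 13.6 and 1.43, so that they were 9.26-fold and 9.53-fold lower. Mcm4 was at 23.9 CPM at 3 d, 20.8 at 3 w, 22.1 at 16 w, 16.1 at 78 w and 5.96 in the injured library. Mcm6 was at 34.5, 22.9, 25.1, 29.0 and 13.1 CPM and Mcm7 at 25.3, 20.2, 18.0, 13.2 and 10.5, while Mcm3, picked out with Mcm2 and Mcm5 after the values were seen, was at 19.4, 12, 7.45, 5.47 and 2.63. The ratio of 3 w to 3 d was 0.108 for Mcm2 and 0.105 for Mcm5 against 0.620 for Mcm3, 0.867 for Mcm4, 0.665 for Mcm6 and 0.798 for Mcm7. The 4 subunits with the higher ratios were all lower in the injured library than in any normal one.

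In the other classes Mcm2 and Mcm5 were also low at 3 w, and the ratios given here for the other subunits were below those in stroma. In endothelial cells the ratio of 3 w to 3 d was 0.115 for Mcm2 and 0.0881 for Mcm5, against 0.569 for Mcm3, 0.437 for Mcm4, 0.396 for Mcm6 and 0.433 for Mcm7. In macrophages it was 0.153 and 0.143 against 0.381, 0.270, 0.265 and 0.448. In mural cells it was 0.0676 for Mcm2 and 0.177 for Mcm5, and Mcm6, at 0.159, was below Mcm5, so that the 2 sets of subunits overlapped in that class.

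**Figure D3:**
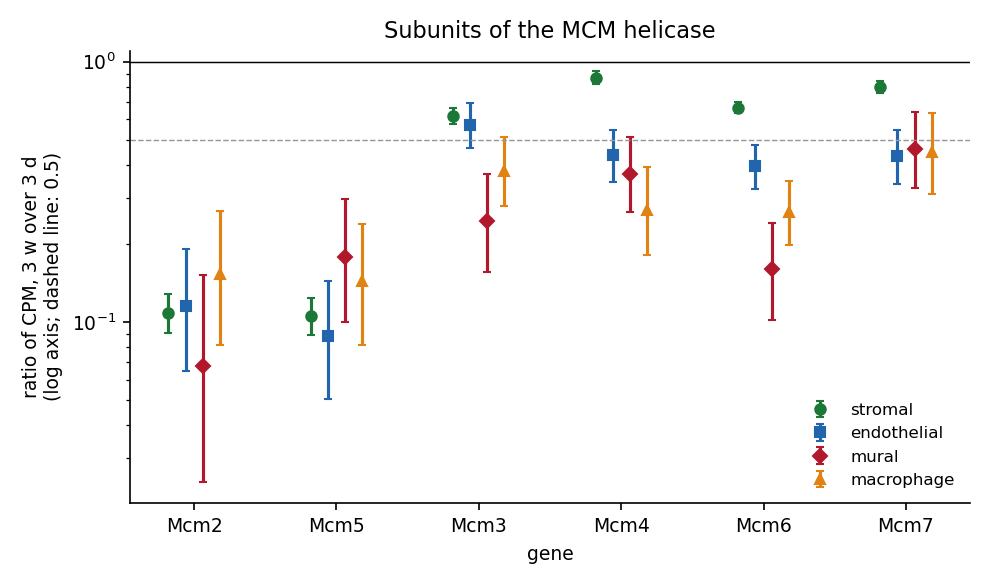
Ratio of CPM at 3 w to CPM at 3 d for the 6 MCM subunits on a log axis, in stromal, endothelial, mural and macrophage cells, with exact 95% intervals of the ratio of 2 counts. Mcm2 and Mcm5 lie between 0.0676 and 0.177 in the 4 classes, and the stromal points of Mcm3, Mcm4, Mcm6 and Mcm7 lie above the dashed line at 0.5.

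Both broad members were at their highest at 3 d in stroma. Stmn1 (stathmin), which takes microtubules apart, was at 228 CPM at 3 d, 6.16 at 3 w, 18.5 at 16 w, 12 at 78 w and 32.4 in the injured library. H2afz, the histone variant H2A.Z, was at 742, 456, 451, 450 and 630 CPM. Stmn1 was 36.9-fold lower and H2afz 1.63-fold lower at 3 w than at 3 d.

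Of the 8 G1 cyclins and kinases, 5 were at least 2-fold lower in stroma at 3 w than at 3 d (20.5% of all genes were) and 0 at least 2-fold higher (16.1%). Ccnd1 (cyclin D1) was at 30.3 CPM at 3 d, 1.96 at 3 w, 2.52 at 16 w, 9.13 at 78 w and 13.5 in the injured library. Its relative Ccnd2 (cyclin D2) was at 317, 301, 338, 236 and 445 CPM, and Cdk2 at 14.6, 11.6, 12, 9.61 and 13.5, so that both differed little between 3 d and 3 w. Ccnd3 (cyclin D3) was at 125, 70.7, 69.4, 73.9 and 58.2 CPM. The E cyclins, which act with Cdk2 at the start of S phase, were at 14.1, 2.67, 4.62, 3.18 and 4.90 CPM for Ccne1 and at 8.19, 2.63, 3.70, 3.12 and 5.72 for Ccne2. Cdk4 and Cdk6, the partners of the D cyclins, were at 231 and 24.9 CPM at 3 d and at 67.5 and 4.23 at 3 w. Of the 19 genes of the E2F and DREAM list, 7 were at least 2-fold lower (against 20.5% of all genes) and 2 at least 2-fold higher (against 16.1%), and the summed level of that list was 174 CPM (171–176) at 3 d and 187 (184–189) at 3 w.

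The CDK inhibitors did not share one direction in stroma. Of the 6 with enough UMIs, 4 were at least 2-fold higher at 3 w than at 3 d, where 16.1% of all genes were, and 1 at least 2-fold lower, where 20.5% were. Cdkn1a (p21) was at 132 CPM at 3 d, 477 at 3 w, 508 at 16 w, 548 at 78 w and 354 in the injured library, and Cdkn1b (p27) at 32.1, 103, 68.3, 52.1 and 115. Cdkn1c (p57), an imprinted inhibitor, went the other way, with 1192.1 CPM at 3 d, 229 at 3 w, 322 at 16 w, 271 at 78 w and 271 in the injured library. Cdkn2d was at 28.4, 68.5, 63.2, 52.8 and 39.7 CPM and Cdkn2c at 26.1, 27.8, 15.8, 15.5 and 23.9.

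Cdkn2a, whose transcripts encode p16 and Arf and which is known as a mark of senescence, was low in stroma throughout. It was at 0.374 CPM at 3 d, 0.0796 at 3 w, 0.124 at 16 w, 1.09 at 78 w and 0.249 in the injured library, and was 13.8 times as high (6.96–30.9) at 78 w as at 3 w. Cdkn2b (p15), next to it, was at 0.326, 0.769, 1.16, 2.39 and 0.817 CPM. In macrophages Cdkn2a was at 0.999 CPM at 3 d, 2.06 at 3 w, 7.22 at 16 w, 15.7 at 78 w and 4.69 in the injured library. The 78 w library was thus the highest of the 5 for both genes in stroma and for Cdkn2a in macrophages.

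The mitotic UMIs of stroma at 3 d came from few cells. Cells were thinned at random to 2000 UMIs each, leaving out shallower ones, and a cell was called positive when it held UMIs of at least 3 different mitotic members. At 3 d 803 of 10845 stromal cells were positive, 7.40% (Clopper-Pearson 6.92–7.91), and at 3 w 9 of 7901, 0.114% (0.0521–0.216). At 16 w it was 0 of 7667 cells, which allows a share of up to 0.0391%, and at 78 w 1 of 8382. This limit and those given below for 0 cells are 3 divided by the number of cells, which is lower than the upper Clopper-Pearson limit. In the injured library 33 of 5802 cells were positive, 0.569% (0.392–0.798), with 1110 shallower cells left out against 55 to 269 in the normal libraries. The injured share was thus above the 3 later normal libraries and below 3 d after thinning.

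Without thinning the shares were 14.2% at 3 d, 1.62% at 3 w, 0.970% at 16 w, 0.637% at 78 w and 0.984% in the injured library, so that the injured share was then below that of 3 w. The injured library was the shallowest, and these shares have no replicate. A positive cell is a range of a count and not a type, since 283 stromal cells at 3 d held 2 mitotic members and 124 held 3. No class known to lack these transcripts could serve to measure free RNA, because erythroid cells, the likeliest, held mitotic UMIs and were filled with haemoglobin. The 12 stromal marker genes at 3 d summed to 35547.3 CPM in stroma, 10331.3 in endothelial, 10789.9 in mural and 8208.0 in macrophage cells. How much of this was free RNA was not tested. In the synovial lining class at 3 d, with a median of 9742 UMIs against 8443 in stroma, 0 of 83 cells were positive, which allows a share of up to 3.61%. Positive stromal cells at 3 d had a median of 12278 UMIs against 8371 in the other cells. Doublets were kept. Scrublet called 7.587% of the barcodes at 3 d and 0 to 2 barcodes in each other library, where it did not work. Without the highest doublet scores up to the expected rate in each library, an alternative added after the data were seen, the share at 3 d was 6.73%.

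**Figure D4:**
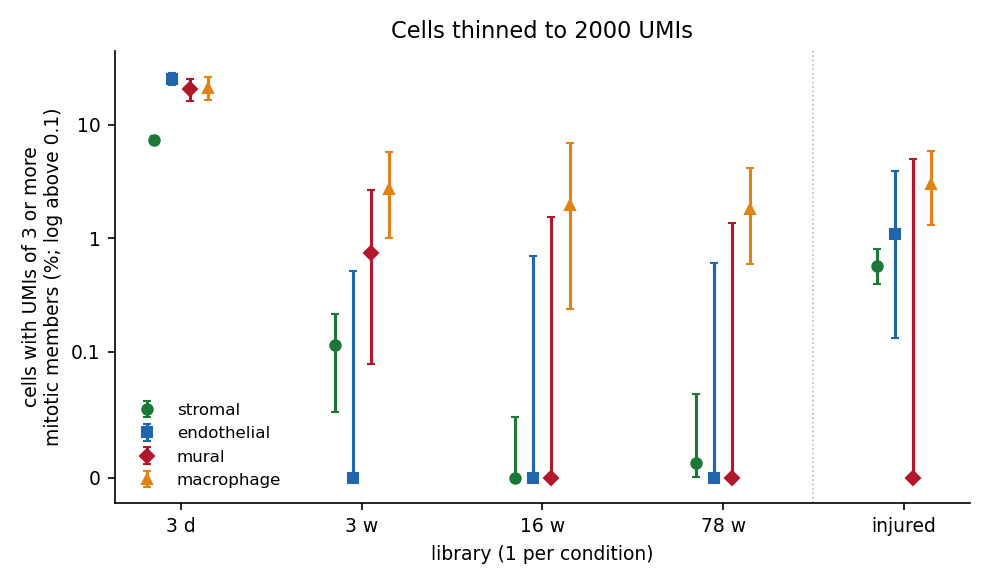
Percent of cells with UMIs of 3 or more mitotic members after thinning to 2000 UMIs per cell, by library and class, on an axis that is linear below 0.1 and logarithmic above. Bars are Clopper-Pearson 95% intervals. At 3 d the shares lie between 7.40% and 25.4%, and all later stromal points lie below 1%.

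The positive cells of stroma at 3 d held 85.4% of the mitotic UMIs and 43.4% of the S phase UMIs of the thinned class. The mitotic members chose these cells, so that their share is high by construction. Of the pathway genes that are not members, these cells held 62.3% of the other mitotic and 27.1% of the other S phase UMIs. At 3 w they held 10.1% of the mitotic and 0.490% of the S phase UMIs, and in the injured library 41.8% and 5.04%. Outside the positive cells the mitotic level was 127 CPM at 3 d, 40.3 at 3 w, 50.5 at 16 w, 41.9 at 78 w and 65.7 in the injured library, and the S phase level 273, 138, 166, 145 and 93.0. Few cells of the later libraries were positive, so that most UMIs of both lists lay outside positive cells there. This follows from the number of positive cells and is not particular to the S phase genes. With the same limit of 3 members applied to the S phase list, 659 stromal cells (6.08%) passed at 3 d, of which 354 were also positive for the mitotic list, and 23, 25, 24 and 8 cells passed at 3 w, 16 w, 78 w and in the injured library.

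Between ages after 3 d the summed lists of stroma differed little, and their directions from 3 w to 16 w rested on single genes. Several members differed by 2-fold or more. The mitotic list was 1.12 times as high (1.08–1.17) at 16 w as at 3 w, and the S phase list 1.19 times (1.17–1.22). Without Cks2 the mitotic ratio was 0.879 (0.831–0.929), and without Pcna the S phase ratio was 0.980 (0.953–1.01), so that each direction rested on 1 gene. Among the 34 members with at least 50 UMIs, 5 were at least 2-fold lower and 5 at least 2-fold higher at 16 w than at 3 w, where 6.58% and 5.96% of all genes were. The 5 that were higher were Top2a, Cdc20, Aurka, Kif23 and Stmn1, and the 5 that were lower were Cenpf, Ube2c, Cdk1, Ccnb1 and Cenpe. At 78 w against 16 w, 2 of 29 members, Top2a and Kif11, were at least 2-fold lower and 0 higher, where 1.75% of all genes were lower and 2.57% higher. The mitotic list was at 0.933 times (0.894–0.973) its 3 w level at 78 w, a direction that reversed to 1.01 when libraries were scaled by median-of-ratios size factors in place of CPM. Without Cks2 the list was at 0.605 times. Gene by gene, 9 of 34 members were at least 2-fold lower at 78 w than at 3 w and 1 higher. Of all 13300 genes tested, 1101 were lower and 910 higher. Of 18 mitotic members with enough UMIs 8 were lower and 1 higher, with a median ratio of 0.557.

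In the injured stroma 10 of 32 members with enough UMIs were at least 2-fold higher than at 16 w and 5 at least 2-fold lower, where 6.63% and 14.8% of all genes were. The median ratio of all genes was 0.813. The mitotic list was 2.26 times as high (2.15–2.36) as at 16 w, and 9 of 15 mitotic members with enough UMIs were at least 2-fold higher. The S phase list was at 0.593 times (0.569–0.618) its 16 w level, and 4 of 15 S phase members (Mcm3, Mcm4, Mcm5 and Ung) were at least 2-fold lower and 1, 2810417H13Rik, at least 2-fold higher. With median-of-ratios size factors the 2 ratios were 2.55 and 0.672, so that neither direction changed. Against 3 w, the other library next to it in age, the mitotic list was 2.53 times as high (2.42–2.65) and the S phase list at 0.708 times (0.680–0.738). Gene by gene against 3 w, 2 of 15 S phase members were at least 2-fold lower and 1 at least 2-fold higher, with a median ratio of 0.855. Over all 12536 genes tested, 2234 were lower and 753 higher, with a median ratio of 0.785.

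Most of the named mitotic members were higher in the injured stroma than at 16 w, by folds that ranged widely. Cenpf, with 6.25 CPM against 0.124 at 16 w, was 50.4 times as high (26.8–107), and Ube2c, with 6.67 against 0.322, 20.7 times (13.7–32.5). Cdk1 was 9.84 times as high, and Ccnb1 (cyclin B1, the partner of Cdk1, picked out after its values were seen), with 6.21 CPM against 0.335, 18.6 times (12.3–29.0). Mki67 was 3.93 times as high (2.49–6.26), Top2a 2.33 times (1.78–3.04) and Cks2 1.86 times (1.73–1.99). Aurka and Cdc20 were lower than at 16 w, at 0.472 and 0.604 times, and so was the helicase subunit Mcm4, at 0.270 times (0.229–0.317). Of the other mitotic genes that are not members 7 of 25 were at least 2-fold higher and 2 lower. Of the other S phase genes 0 of 34 were higher and 6 lower, where 6.63% of all genes were higher and 14.8% lower. The 16 w level of Cenpf rested on 10 UMIs. Of its 176 UMIs in the injured stroma, 137 were in the 33 positive cells and 44 were in 2 cells. The interval of its ratio does not allow for UMIs that share a cell. Among stromal cells that could be thinned and were not positive, the mitotic list stood at 65.7 CPM in the injured library and 50.5 at 16 w. The higher summed level of the list in the injured stroma thus rested in large part on few cells. That did not hold for every member. The positive cells held 28 UMIs of Ccnb1 against 137 of Cenpf, though the class levels of these genes were alike (6.21 and 6.25 CPM). Against 3 w, 8 of 15 mitotic members with enough UMIs were at least 2-fold higher in the injured stroma and 0 lower. The ratios of the list ran from 0.709 to 7.19, while those to 16 w ran from 0.472 to 58.3. Of all 12536 genes tested against 3 w, 753 were at least 2-fold higher and 2234 lower.

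Within positive stromal cells the S phase genes were lower in the injured library than at 3 d. The level of the mitotic members, which chose these cells, is a description. It was 6314.6 CPM at 3 d (803 cells) and 5855.8 in the injured library (33 cells), a ratio of 0.927 (0.876–0.981). The S phase list stood at 1783.7 CPM at 3 d and 612.0 in the injured library, 2.91-fold lower (2.45–3.49). Of its members 14 of 15 had a ratio below 1, with an interval below 1 for 7 and above 1 for 0. Ratios below 1 were also held by 17 of 24 mitotic members, 36 of 53 other mitotic genes and 13 of 19 E2F and DREAM genes. The share over all genes was not computed for these cells, so that a general shift was not tested. Rrm2 was at 205 and 60.8 CPM, Tyms at 170 and 42.1, 2810417H13Rik at 640 and 150 and Tk1, picked out after its values were seen, at 181 and 32.7. The 40 other S phase genes were 2.19-fold lower (1.92–2.51), and the 53 other mitotic genes, which did not choose the cells, were at 0.745 times (0.701–0.791) their 3 d level, with an interval below 1 for 15 and above 1 for 4. Among the mitotic members Cks2 was at 616 CPM at 3 d and 855 in the injured library and Top2a at 614 and 327. In the 9 positive stromal cells at 3 w the S phase list was at 617 CPM (487–771), near the injured level. In stromal cells that were not positive it was at 273 CPM at 3 d and 93.0 in the injured library. An S phase level below that of 3 d was thus not particular to the injured library or to positive cells.

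**Figure D5:**
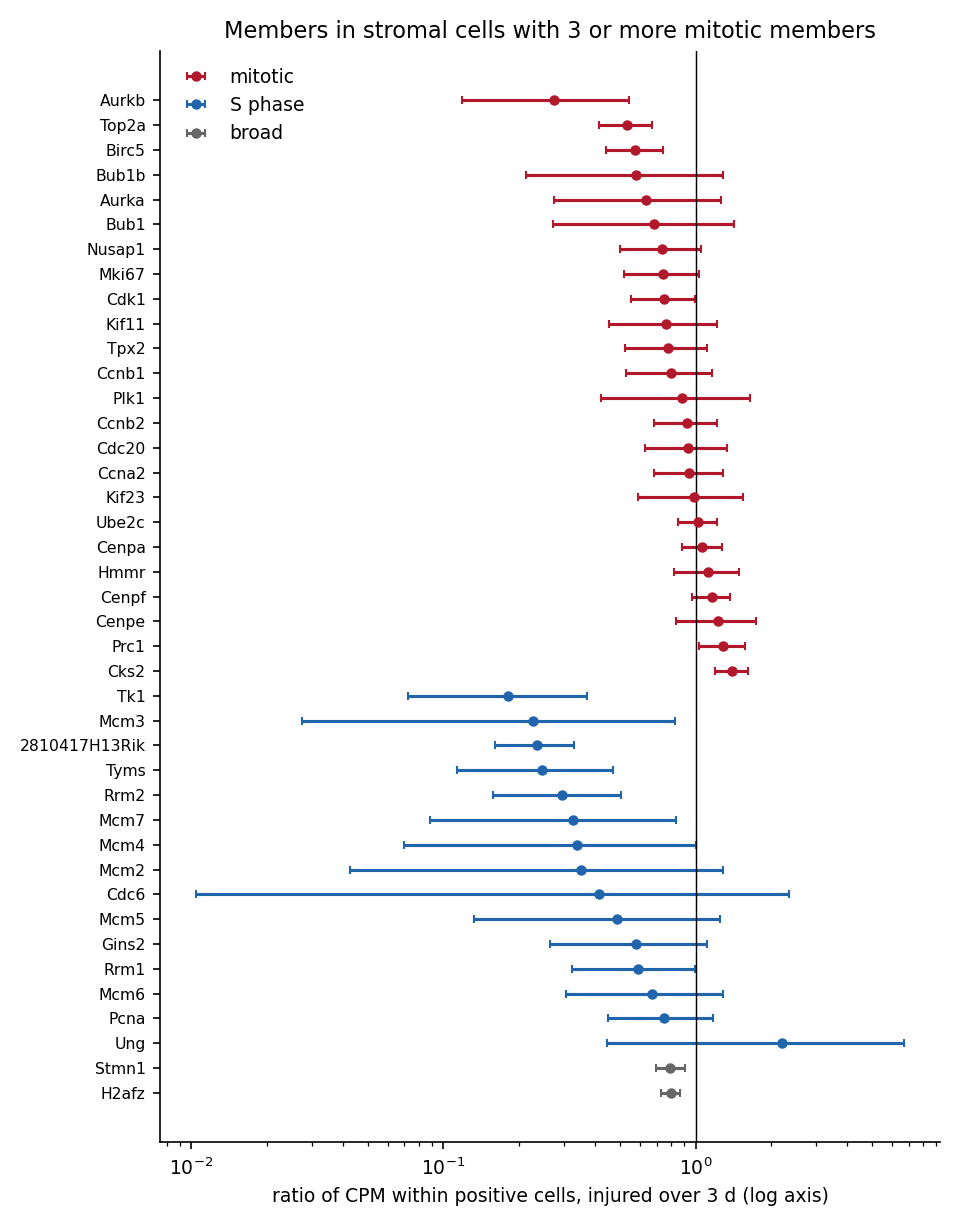
Ratio of CPM in the injured library to CPM at 3 d within positive stromal cells (33 and 803 cells) for the 41 members, on a log axis with exact 95% intervals of the ratio of 2 counts, grouped by list. Mitotic points lie on both sides of 1, and 14 of 15 S phase points lie below 1.

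The positive cells were not spread evenly over the 4 stromal clusters, which were formed without these genes. At 3 d the positive share in clusters 1 to 4 was 7.36%, 1.58%, 8.15% and 3.92%. In the injured library it was 0.753%, 0.103%, 0.993% and 0.787%. Cluster 2 had the lowest value in both, from 7 of 443 cells at 3 d (0.638–3.23) and 2 of 1949 in the injured library (0.0124–0.370). Its interval lay below those of clusters 1 and 3 in both libraries. It overlapped that of cluster 4, from 2 of 51 cells at 3 d (0.478–13.5) and 7 of 889 in the injured library (0.317–1.62).

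After thinning, endothelial cells had the largest positive share at 3 d among the named classes. The interval of that share overlapped those of mural cells and macrophages, and without thinning the macrophage share was larger. Haemoglobin genes held 2.25% of endothelial UMIs at 3 d, against 0.243% in macrophages, 0.112% in stroma and 0.0802% in mural cells. Whether erythroid transcripts or cells bore on this share was not tested. The endothelial share was 221 of 869 cells, 25.4% (22.6–28.5). At 3 w, 16 w and 78 w it was 0 of 712, 0 of 529 and 0 of 605 cells, which allows shares of up to 0.421%, 0.567% and 0.496%. In the injured library 2 of 183 cells were positive, 1.09% (0.133–3.89). Without thinning these shares were 32.7%, 1.33%, 0.524%, 0.442% and 0.735%. The mitotic list stood at 1558.3 CPM (1531.8–1585.2) at 3 d and 65.6 (59.0–72.7) at 3 w, 23.8-fold lower (21.4–26.4), and at 50.6 and 58.9 CPM at 16 w and 78 w. The S phase list went from 971 CPM to 236, 4.11-fold lower (3.87–4.36).

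In endothelial cells 39 of 41 members were at least 2-fold lower at 3 w than at 3 d, where 23.6% of all 9818 genes were. Top2a was at 149 CPM at 3 d and 2.34 at 3 w, Ube2c at 148 and 0.360 and Mki67 at 62.2 and 3.60. 2810417H13Rik was at 257 CPM at 3 d and had 0 UMIs at 3 w, 16 w and 78 w, so that it was at least 476-fold lower at 3 w, counted against a floor of 3 UMIs per library. Pcna, at 91.1 CPM at 3 d, 99.6 at 3 w, 60.8 at 16 w, 79.0 at 78 w and 62.5 in the injured library, showed no such difference. Cdkn1a was 12.2 times as high at 3 w as at 3 d, with 1494.8 against 122 CPM. In the injured endothelium the mitotic list was 2.58 times as high (2.04–3.25) as at 16 w, from 123 UMIs of which 30.1% were in 1 cell. Without the cell that held most of the list in each library it was 1.85 times (1.41–2.40), and the S phase list was at 0.729 times (0.603–0.875).

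In mural cells the mitotic genes were lower at 3 w than at 3 d and lower again at 16 w. The mitotic list stood at 1728.9 CPM (1683.1–1775.5) at 3 d, 204 (188–222) at 3 w, 78.4 (67.0–91.2) at 16 w, 69.9 (58.8–82.5) at 78 w and 92.8 (62.6–132) in the injured library, and at 3 w was 8.47-fold below 3 d (7.77–9.25). At 3 w 43.9% of its 567 UMIs were in 2 cells. The positive share was 67 of 325 cells at 3 d, 20.6% (16.3–25.4), 2 of 269 at 3 w, 0.743%, and 0 of 236, 0 of 268 and 0 of 72 cells at 16 w, 78 w and in the injured library, which allows up to 1.27%, 1.12% and 4.17%. Of 39 members with enough UMIs 38 were at least 2-fold lower at 3 w than at 3 d, where 21.9% of all 7324 genes were. Rrm1 in these cells was at 53.3 CPM at 3 d, 18.7 at 3 w, 33.1 at 16 w, 52.4 at 78 w and 21.7 in the injured library. It was 2.80 times as high (1.99–3.99) at 78 w as at 3 w. Of 3 S phase members with enough UMIs it was the 1 at least 2-fold higher, where 400 of all 5935 genes were. The median ratio of these 3 was 0.720, and the S phase list was at 0.896 times its 3 w level.

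Macrophages had the highest mitotic level after 3 d, in CPM, of these 4 classes. Their mitotic list stood at 1407.8 CPM (1371.3–1445.1) at 3 d, 274 (256–294) at 3 w, 464 (427–503) at 16 w, 250 (232–269) at 78 w and 321 (291–354) in the injured library. These later levels rested on few cells, and at 16 w 419 of the 578 mitotic UMIs (72.5%) were in 1 cell of 112. At 3 d 60 of 283 macrophages were positive, 21.2% (16.6–26.4). At 3 w it was 6 of 222 cells, 2.70% (0.998–5.79), at 16 w 2 of 102, 1.96% (0.238–6.90), and at 78 w 5 of 275, 1.82% (0.593–4.19). In the injured library 8 of 265 were positive, 3.02% (1.31–5.86). The intervals of the 4 later libraries overlapped, so that no order among them was detectable at this depth. Without thinning the shares were 37.4%, 9.40%, 5.36%, 2.71% and 4.68%.

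In macrophages 37 of 40 members with enough UMIs were at least 2-fold lower at 3 w than at 3 d, where 12.3% of all 7281 genes were, and Mki67, Pcna and H2afz were not. Mki67 was at 97.6 CPM at 3 d, 58.0 at 3 w, 41.7 at 16 w, 17.0 at 78 w and 26.6 in the injured library, while Top2a was at 133, 14.1, 31.3, 14.0 and 24.2. After thinning 22 of 222 macrophages at 3 w held a Mki67 UMI (9.91%) and 3 held a Top2a UMI (1.35%). Of those 22 cells 13.6% (2.91–34.9) held at least 2 other mitotic members, against 65.6% (46.8–81.4) of the 32 cells with Mki67 at 3 d. In the injured library macrophages had more of the S phase gene 2810417H13Rik, at 33.6 CPM against 177 at 3 d and 0.802 to 4.81 in the other normal libraries, and of Rrm2, at 21.9 CPM against 0.802 at 16 w. A level of 0.802 CPM at 16 w is 1 UMI among the 1246910 of that class, so that the fold to 16 w is uncertain. The S phase list of macrophages in the injured library was 1.27 times as high (1.06–1.51) as at 16 w, and the mitotic list at 0.693 times (0.610–0.788). The latter rested on the 1 cell named above, and without the cell that held most of the list in each library the ratio was 2.12 (1.76–2.58). Against 3 w the mitotic ratio was 1.17 (1.04–1.32). Without the cell with most S phase UMIs in each library the S phase ratio to 16 w was 1.19 (0.991–1.43), an interval that held 1. Without Pcna it was 1.77 (1.40–2.25).

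Erythroid cells at 3 d had few UMIs of either list. The mitotic list stood at 163 CPM (143–184), or 255 UMIs in all, of which Ube2c gave 99.5 CPM and Nusap1 21.7, and the S phase list at 28.1 CPM (20.4–37.7). Haemoglobin genes held 88.8% of the UMIs of these cells, and relative to the UMIs of the other genes the lists stood at 1453.5 and 251 CPM. After thinning 0 of 264 erythroid cells were positive, with most of the 2000 UMIs of each cell taken by haemoglobin, so that this share is not comparable with those of the other classes.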

How the data were processed

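The authors digested disc tissue with Pronase and Collagenase P and made 10x Chromium 3′ libraries. The deposited files hold raw UMI counts per gene and cell barcode for each of 5 libraries, without normalization. The submitters' processing notes name Cell Ranger 3.1 and build mm10, while the headers of the count matrices name version 4.0.0. The matrix of the 78 w library carries the name of another age, and the age on its label was used. The matrices held 51948 barcodes, the lowest with 500 to 502 UMIs, and total UMIs were 125130270 at 3 d, 125427849 at 3 w, 88998394 at 16 w, 105309834 at 78 w and 31585993 in the injured library.

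Of these barcodes 51688 had over 200 UMIs with 30% or less from mitochondrial genes, and these were analysed. The 4 normal libraries held 43481 barcodes and 43221 after this filter, more than the study retained. Cells were integrated and clustered in Seurat 5.3.0 with R 4.3.3 (2000 integration features, of which the 69 that belong to the cell cycle lists were left out, 30 dimensions, resolution 0.2). The 11 clusters were named from fixed marker lists, so that names are rebuilt here. 1 cluster led by muscle genes is called by its genes and 1 stayed unnamed.

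UMIs were summed per class and library and given as CPM in Python 3.11.15 with SciPy 1.17.1. Intervals are exact 95% intervals for counting error. With 1 library per condition no test between conditions was run. A gene was called at 2-fold or more where it had 50 UMIs in the library with the higher level. For these calls a count below 3 was set to a floor of 3. For the ratios of single named genes only a count of 0 was set to that floor. The step that calls genes was checked on simulated counts. Values are written out for Mki67, Top2a, the 8 members with most UMIs of the mitotic and of the S phase list, both broad members and the G1 and inhibitor lists. The members and lists were chosen with earlier results of these data known. Alternatives covered integration, classes from each cell's own markers, the cell cycle genes kept for clustering, stricter filters, doublets, single genes or cells left out, scaling, equal weight per cell, thinning and the number of members. Chromosome positions are those of GRCm38.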

Additional observations from a re-analysis of the deposited data

Results flagged for a closer look

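Several list ratios lay on opposite sides of 1 in different cell classes, with exact counting intervals that excluded 1. With 1 library per condition the difference between classes was not tested. From 3 w to 16 w the mitotic list was at 1.12 times its level in stromal cells and 1.69 times in macrophages, but at 0.771 times in endothelial and 0.384 times in mural cells. The stromal and macrophage directions each rested on 1 item. Without Cks2 the stromal ratio was 0.879. Without the cell that held most UMIs of the list in each library (72.5% of them at 16 w in macrophages) the macrophage ratio was 0.643 and the mural ratio 0.547. Between the same libraries the S phase list was at 1.19 times in stromal, 0.843 times in endothelial and 0.864 times in mural cells, and without Pcna it was at 0.980, 1.01 and 0.917 times. In the injured library against 16 w, the mitotic list was at 2.26 times in stromal and 2.58 times in endothelial cells, but at 0.693 times in macrophages. Without the cell with most UMIs of the list in each library these ratios were 2.15, 1.85 and 2.12, all above 1. The S phase list was at 1.27 times in macrophages, but at 0.593 times in stromal and 0.729 times in endothelial cells. Without the cell with most UMIs of that list in each library the macrophage ratio was 1.19 (0.991–1.43), an interval that held 1.

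Mitotic UMIs were also present at 3 d in cells outside the classes compared above. The mitotic list stood at 100 CPM in the synovial lining class, at 782 CPM in the low-UMI cluster led by muscle genes and at 1680.9 CPM in the unnamed cluster, each above the limit that a count of 0 allows. The unnamed cluster held 202 cells at 3 d, and 34 of the 176 that could be thinned to 2000 UMIs were positive, 19.3% (13.8 to 25.9).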

How the results depend on the processing

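The number of members at least 2-fold lower in stromal cells at 3 w than at 3 d stayed between 34 and 35 over 9 alternatives. In stromal cells the mitotic ratio of 3 w to 3 d, 0.0580 as reported, was 0.0557 with the cell cycle genes kept for clustering, 0.0602 without the highest doublet scores, 0.0612 with median-of-ratios size factors, 0.0849 with equal weight per cell and 0.0415 without Cks2. The S phase ratio, 0.322, was 0.340 with size factors, 0.401 with equal weight and 0.275 without Pcna. The mitotic ratio of the injured library to 16 w, 2.26, was 2.55 with size factors, 1.96 with equal weight and 2.66 without Cks2. The ratio of 78 w to 3 w, 0.933, reversed to 1.01 with size factors and was 0.605 without Cks2. The mitotic ratio of 3 w to 3 d was 0.0372 without Scrublet's calls, 0.0607 with equal weight and 0.0245 without Cks2 in endothelial cells, against 0.0421 as reported, and 0.258 without the highest doublet scores, 0.243 with equal weight and 0.169 without Cks2 in macrophages, against 0.195. The positive share of stromal cells at 3 d, 7.40%, was 6.73% without the highest doublet scores, 5.57% after thinning to 1000 UMIs, 14.2% without thinning, 10.0% with 2 or more members and 5.47% with 5 or more. Of the ratios between later libraries, those of 16 w to 3 w reversed without Cks2 in the mitotic list of stromal cells (0.879 against 1.12), without Pcna in the S phase list of stromal (0.980 against 1.19) and endothelial cells (1.01 against 0.843), and without the cell of each library with most UMIs of the list in macrophages for the mitotic list (0.643 against 1.69). The mitotic ratio of 16 w to 3 w was 0.940 without Cks2 in endothelial cells and 0.547 without that cell in mural cells. The mitotic ratio of the injured library to 16 w reversed to 2.12 without that cell in macrophages and to 0.884 without Cks2 in mural cells, where its interval held 1 as reported (1.18), and without that cell was 2.15 in stromal and 1.85 in endothelial cells. The S phase ratio of these libraries was 0.597 in endothelial cells and 1.77 in macrophages without Pcna. The alternatives on doublet scores, single genes and single cells were added after the data were seen, and the cause of each change was not tested. Without thinning, the injured share of positive cells was below that of 3 w in stromal and endothelial cells, where it was above after thinning. Macrophages then had the largest share at 3 d. Among the other list ratios reported, the directions held in the alternatives run here. No paired analysis was possible because each condition had 1 library. For the same reason no replicate could be left out, and the low depth per cell of the injured library limits its shares of positive cells.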
